A study of Homo sapiens with 54 samples.

Results

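Argonaute-bound RNA of H4 cells, a human line of glioneuronal type, was compared between cultures transfected with miR-107 and cultures transfected with miR-107-mut1, an altered form of it. The 6 arrays were chosen by their titles, 3 immunoprecipitates (IP) labelled miR-107 and 3 labelled Mut M1, out of 54 arrays in the series. In the series 9 small RNAs were each transfected alone, and RNA was taken after 48 h both from an immunoprecipitate with a monoclonal anti-Argonaute antibody and from the total lysate. All groups are the same unmodified line and differ in the transfected RNA and in the fraction. The microRNAs were miR-107, miR-103, miR-16, miR-195, miR-320 and miR-15b*. Both altered forms of miR-107 and the negative control RNA are called non-physiological in the design text, so the control cultures also received a small RNA. Each of the 18 groups has 3 biological replicates, per the design text. The small RNAs are synthetic mimics added from outside, and the bases altered in miR-107-mut1 are not given in the sources used here.

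MicroRNAs guide Argonaute to messages that pair with the microRNA, above all through its seed, bases 2 to 8 from the 5′ end. Messages held by Argonaute come down with the antibody, so an immunoprecipitate read on an array shows which messages were associated with it. miR-107 and miR-103 are paralogues encoded in introns of pantothenate kinase genes and are abundant in brain. miR-16 and miR-195 have a shifted form of the same seed, and the 4 are counted in one family. The mature sequences are shown because the levels below are set beside those with miR-103, miR-16 and miR-195. They are from RefSeq (GRCh38.p14), where mature miR-107 lies at chr10:89592756-89592778 on the minus strand, inside the span of PANK1. Capitals mark the seed.

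hsa-miR-107: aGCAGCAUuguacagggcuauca
hsa-miR-103a-3p: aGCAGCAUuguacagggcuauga
hsa-miR-16-5p: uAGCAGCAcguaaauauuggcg
hsa-miR-195-5p: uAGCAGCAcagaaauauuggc

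miR-107 and miR-103a-3p share the seed and differ at 1 base, C22G, with positions counted from the 5′ end. Bases 1 to 7 of miR-107 are the letters of the miR-16 and miR-195 seed.

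Levels are the deposited values, read as log2, and each mean is given ± SD (n = 3). The log base is not stated, which limits every fold below. Differences are miR-107 minus miR-107-mut1 and are given ± SE. P-values are from limma, adjusted by Benjamini-Hochberg across the 11050 genes tested, and a gene is called at an adjusted p under 0.05. The 27 IP arrays had medians of 3.52 to 3.65 over genes. The spread of values differed between the groups compared: the SD over genes was 1.33 to 1.48 on the miR-107 arrays and 1.56 to 1.84 on the miR-107-mut1 arrays. VIM and SOX2, expressed in glial and neural precursor cells, were at 12.75 ± 0.08 and 10.81 ± 0.36 in the miR-107 lysate, while the astrocyte gene GFAP (6.75 ± 0.05) and the neurofilament gene NEFL (6.70 ± 0.10) were below the lysate median of 7.66 to 7.69. Over the 10 glial and 10 neuronal markers on the array the median levels in the miR-107 lysate were 6.80 and 6.57. None of the 7 glial, 6 neuronal and 3 epithelial markers tested was called in the IP. In the lysate VIM was called higher (0.31, adjusted p = 0.017) and 2 neuronal markers lower. The test of IP against lysate differences, described below, called VIM and SOX2 lower, and both lost that call without some arrays. None of the 5 haematopoietic and 3 endothelial markers on the array passed the filter on low values. The mature transfected RNAs are not measured by these arrays, so the labels could not be checked against them.

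Messages that differed were mostly lower with miR-107 than with miR-107-mut1. Of 11050 genes, 558 were called (5.05%), 21 higher (0.19%) and 537 lower (4.86%). The largest rises were those of GRN, which encodes the secreted and lysosomal protein progranulin, and IER3IP1, which encodes a small protein of the endoplasmic reticulum, at 15.8-fold and 12.3-fold. The largest fall was that of RAB11A, a GTPase of recycling endosomes, at 58.8-fold. Replication-dependent histone genes fell as a group, 23 of 33 tested. The cultures were measured in bulk, so a change in some cells and a smaller change in all cells could not be told apart. IP values read what came down with Argonaute, not the amount of a message. In the lysate GRN (-0.73) and RAB11A (0.75) differed in the opposite direction.

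The balance of higher and lower calls differed between normalizations. The median difference was -0.21 over all genes, and it went from -0.08 in the fifth of genes with the lowest level in the other IP arrays to -0.65 in the fifth with the highest. After cyclic loess within the IP arrays, which evens out such trends, the medians ran from -0.17 to -0.01 across these groups of genes and the overall median was -0.08. There were then 600 calls, 107 higher (0.968%) and 493 lower (4.46%), so the higher share of calls went from 3.76% to 17.8%. Quantile normalization, chosen after seeing the data, gave 130 higher and 395 lower. Of the calls on deposited values, 18 of 21 higher and 410 of 537 lower genes were called the same way after loess, and 0 the opposite way.

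**Figure D1:**
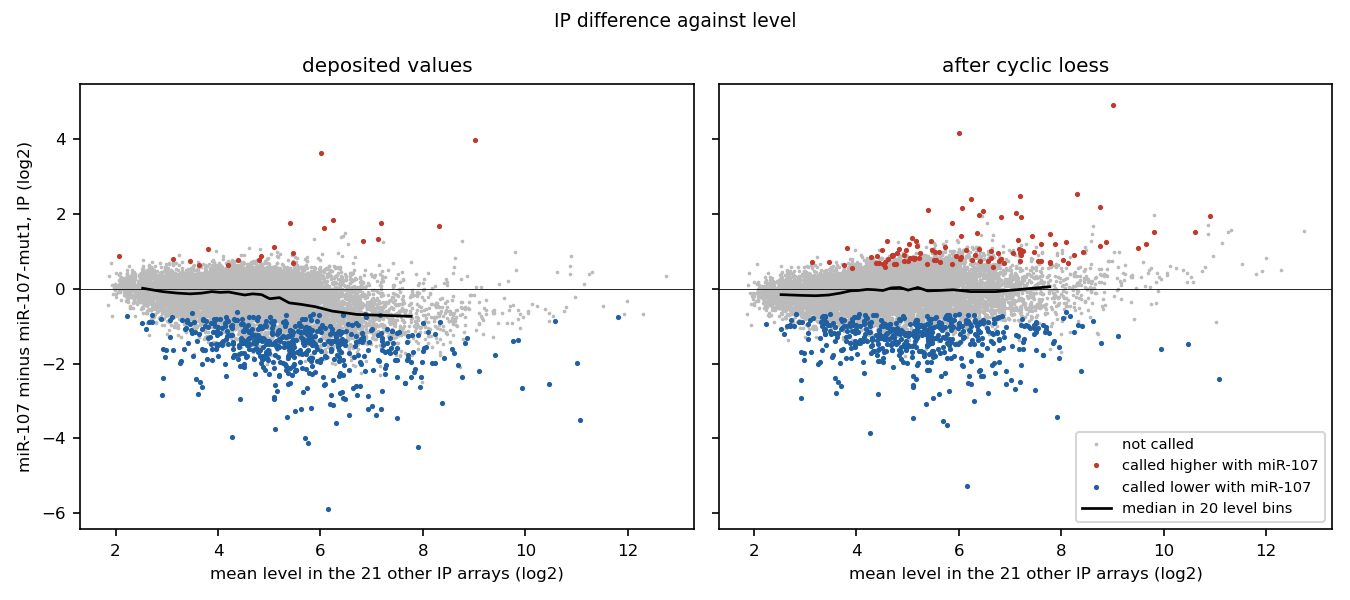
Each point is 1 of 11050 genes, with its mean level in the 21 IP arrays of the other groups on the x axis (log2) and its difference, miR-107 minus miR-107-mut1, on the y axis (log2), for the deposited values (left) and after cyclic loess (right). Coloured points were called and the black line is the median in bins of level: it sinks toward high levels on the left (-0.65 over the fifth of genes with the highest levels) and stays near 0 on the right, while GRN, IER3IP1 and RAB11A stand far from it in both.

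GRN stood highest among the rises. Its miR-107 arrays read 11.78, 11.72 and 11.24, and its miR-107-mut1 arrays 7.38, 7.07 and 8.33. The groups did not overlap, and the 3 miR-107-mut1 values lay around the negative control arrays, at 7.46, 7.58 and 7.85. The difference was 3.98 ± 0.48 (adjusted p = 1.4e-05) and 4.91 ± 0.27 after loess (adjusted p = 3.1e-12). IER3IP1 read 8.56, 9.30 and 9.97 with miR-107 and 5.40, 5.70 and 5.89 with miR-107-mut1, a difference of 3.62 ± 0.39 (adjusted p = 2.9e-06). Its control arrays, between 5.09 and 6.61, were again at the level of the altered molecule.

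BOLA3, which takes part in assembling iron-sulfur clusters in mitochondria, read 7.98, 8.13 and 7.42 with miR-107 and 5.88, 6.08 and 6.04 with miR-107-mut1. It rose 3.58-fold (1.84 ± 0.23, adjusted p = 2.1e-05). NINJ1, a membrane protein of cell adhesion and of plasma membrane rupture, read 9.89, 9.31 and 9.53 against 7.75, 7.95 and 7.99. It rose 3.21-fold (1.68 ± 0.37, adjusted p = 0.0085). In both genes the lowest miR-107 array was more than 1 above the highest miR-107-mut1 array. GRN, IER3IP1, BOLA3 and NINJ1 are the 4 of 21 higher genes that held their call over 19 settings, the main fit included. A setting whose filter left a gene out was not counted against it.

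LDOC1 and GUCD1 rose about as much as NINJ1 and the other named rises were smaller, and each lost its call when at least 1 array was left out. SLC29A3, a nucleoside transporter of lysosomes, rose 3.10-fold (1.63 ± 0.37, adjusted p = 0.011), with 8.38, 7.59 and 7.47 against 5.85, 6.01 and 6.67. GOT2, the mitochondrial aspartate aminotransferase, rose 2.42-fold, with 8.17, 8.06 and 8.26 against 6.50, 6.92 and 7.26 (adjusted p = 0.015). Each lost its call without 1 array, SLC29A3 without miR-107 replicate 1 (1.35, adjusted p = 0.059) and GOT2 without miR-107 replicate 3 (1.22, adjusted p = 0.055). LDOC1, a leucine zipper gene derived from a retrotransposon, read 8.40, 8.38 and 8.81 with miR-107 and 6.39, 6.70 and 7.24 with miR-107-mut1. Its difference of 1.76 ± 0.49 (adjusted p = 0.04) missed the threshold without any 1 of the 6 arrays (adjusted p = 0.074 to 0.11), although after loess it was 2.46 ± 0.28 (adjusted p = 2.3e-06).

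GUCD1 was at 6.95 ± 0.22 against 5.21 ± 0.69, with miR-107-mut1 replicate 1 (4.42) below the other two. Its difference was 1.74 ± 0.45 (adjusted p = 0.025), and it lost its call without any miR-107 array or miR-107-mut1 replicate 1 (highest adjusted p = 0.082). ZDHHC4, a palmitoyltransferase gene, differed by 1.33 ± 0.33 (adjusted p = 0.022) and lost its call without miR-107 or miR-107-mut1 replicate 1 or 2 (highest adjusted p = 0.093). AP5Z1, a subunit of an adaptor complex of late endosomes, differed by 1.11 ± 0.27 (adjusted p = 0.02) and lost it without miR-107 replicate 2 or miR-107-mut1 replicate 3 (highest adjusted p = 0.12). All 3 were called after loess, at 2.10, 2.01 and 1.36.

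The 5 smallest of the 15 named rises came next. PRSS23, a serine protease gene, was at 4.18 ± 0.25 against 3.11 ± 0.05 (1.07 ± 0.29, adjusted p = 0.036). PTGS2, the inducible cyclooxygenase, was at 5.43 ± 0.08 against 4.47 ± 0.47 (0.96 ± 0.23, adjusted p = 0.019). TMEM86B (0.87 ± 0.23), the noncoding RNA gene KTN1-AS1 (0.78 ± 0.20) and the adhesion receptor gene ADGRA1 (0.77 ± 0.23) complete the 15 largest rises, with adjusted p from 0.027 to 0.048. Each of these 5 lost its call without at least 3 of the 6 arrays, with highest adjusted p-values of 0.13 (PRSS23), 0.19 (PTGS2), 0.15 (TMEM86B), 0.21 (KTN1-AS1) and 0.16 (ADGRA1). PRSS23 and ADGRA1 lost it without any of the 6, PTGS2 without miR-107 replicates 1 or 2, TMEM86B without replicates 1 or 3 of either group and KTN1-AS1 without miR-107 replicates 2 or 3, and PTGS2 and KTN1-AS1 also without miR-107-mut1 replicate 3. The remaining 6 higher genes, with differences from 0.63 to 0.88, were DHX29, GALNT9, LCP2, KRTAP4-2, ADCYAP1 and NALF2, and the arrays of DHX29 overlapped.

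After loess the rises took in genes not called on the deposited values, named here after their values were seen. POLR2L, a small subunit of RNA polymerases, was at 9.95 ± 0.30 against 8.67 ± 0.47 as deposited (1.28 ± 0.50, adjusted p = 0.13) and differed by 2.17 after loess (adjusted p = 3.6e-07). INSIG1, which holds back sterol synthesis, went from 1.48 ± 0.55 (adjusted p = 0.12) to 2.06 (adjusted p = 0.00022). TRAPPC1, a subunit of a vesicle tethering complex, went from 0.86 ± 0.27 (adjusted p = 0.067) to 1.95 (adjusted p = 0.017).

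**Figure D2:**
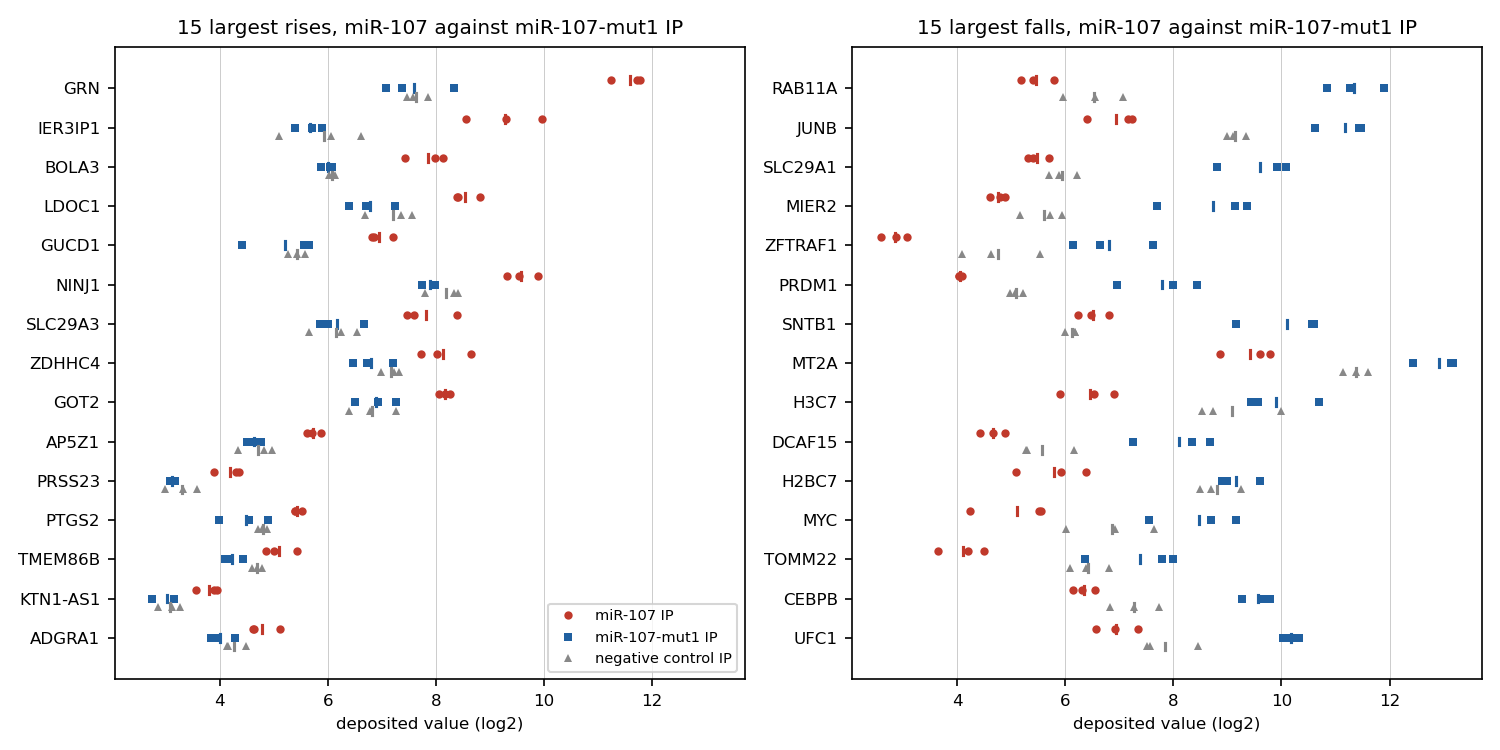
Deposited value (log2, x axis) of the 15 genes with the largest rises (left) and falls (right) on each of 3 miR-107 IP arrays (circles), 3 miR-107-mut1 IP arrays (squares) and 3 negative control IP arrays (triangles), with a tick at each group mean. No gene's circles and squares overlap. On the left every triangle lies below the circles of its gene. On the right the triangles lie near the circles for RAB11A, SLC29A1 and SNTB1 and near the squares for H2BC7.

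Among the falls, RAB11A read 5.19, 5.40 and 5.79 with miR-107 and 10.85, 11.89 and 11.27 with miR-107-mut1. The control arrays, at 6.56, 5.95 and 7.07, were close to miR-107, and the high values were those of the altered molecule. The difference was -5.88 ± 0.33 (adjusted p = 1e-10) and -5.28 ± 0.25 after loess (adjusted p = 1.8e-13). SLC29A1, a nucleoside transporter of the plasma membrane, read 5.32, 5.40 and 5.70 against 8.81, 10.09 and 9.91, with the control at 5.93 ± 0.26. It was 17.5-fold lower (-4.13 ± 0.28, adjusted p = 2.6e-09). SNTB1, a syntrophin that binds the dystrophin complex, read 6.47, 6.24 and 6.81 against 9.16, 10.56 and 10.61, with the control at 6.13 ± 0.11. Its miR-107 arrays all lay above its control arrays, and it was 12.2-fold lower than with miR-107-mut1 (-3.60 ± 0.34, adjusted p = 5.2e-07).

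MIER2, of a family of transcriptional corepressors, was at 4.76 ± 0.14 against 8.74 ± 0.91 (-3.98 ± 0.52, adjusted p = 4.6e-05). ZFTRAF1 was at 2.85 ± 0.25 against 6.81 ± 0.75 (-3.96 ± 0.66, adjusted p = 0.00072). CEBPB, a transcription factor of the acute phase and of differentiation, was at 6.34 ± 0.21 against 9.56 ± 0.26 (-3.22 ± 0.32, adjusted p = 1.1e-06), and UFC1, the conjugating enzyme of the ubiquitin-like UFM1, at 6.95 ± 0.39 against 10.17 ± 0.15 (-3.22 ± 0.39, adjusted p = 1.5e-05). In 8 of the 15 named falls (RAB11A, JUNB, SLC29A1, MIER2, ZFTRAF1, SNTB1, CEBPB and UFC1) the 3 miR-107-mut1 arrays lay above each of the other 24 IP arrays. Over all genes this held for 85 of the 537 called lower and for 95 of 11050 tested. HMGN4, a nucleosome-binding protein, and CAMK2N1, an inhibitor of a calmodulin-dependent kinase, were picked after their values were seen as such cases with little spread. HMGN4 read 4.96, 5.40 and 5.20 against 7.41, 7.88 and 7.89, and the other 7 IP groups had means of 5.03 to 5.56. CAMK2N1 read 5.69, 5.74 and 6.72 against 8.66, 8.82 and 8.96, and the others had means of 6.13 to 6.88.

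Other falls had an intermediate or high control. JUNB, a subunit of the AP-1 transcription factor, read 7.24, 6.41 and 7.17 with miR-107, 10.62, 11.48 and 11.44 with miR-107-mut1 and 9.10, 8.99 and 9.34 in the control. The 3 groups were separate, with the control between (-4.24 ± 0.41 between miR-107 and the altered molecule, adjusted p = 7e-07). MT2A, a metal-binding metallothionein, read 9.79, 8.87 and 9.60 against 13.13, 12.44 and 13.18, with the control at 11.37 ± 0.23 (-3.50 ± 0.28, adjusted p = 3.2e-08). MYC, the growth-promoting transcription factor, read 5.56, 4.24 and 5.51 against 8.69, 7.55 and 9.16, with the control at 6.86 ± 0.82 (-3.37 ± 0.49, adjusted p = 0.00016). The miR-320 group was nearest to miR-107-mut1 for both, at 13.00 ± 0.14 for MT2A and 8.87 ± 0.75 for MYC.

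PRDM1, a transcriptional repressor, was at 4.05 ± 0.04 against 7.79 ± 0.76 (-3.74 ± 0.42, adjusted p = 6.2e-06), and DCAF15, a substrate receptor of a ubiquitin ligase, at 4.66 ± 0.24 against 8.10 ± 0.74 (-3.44 ± 0.55, adjusted p = 0.00044). Both were also high with miR-320, at 7.46 ± 0.41 and 7.02 ± 0.86. TOMM22, a receptor of mitochondrial protein import, was at 4.11 ± 0.43 against 7.39 ± 0.89 (-3.27 ± 0.68, adjusted p = 0.0058). The histone gene H2BC7 read 5.92, 5.09 and 6.38 against 8.90, 9.60 and 8.99, and its control arrays, at 8.49, 8.69 and 9.26, overlapped those of the altered molecule (-3.37 ± 0.53, adjusted p = 0.00036). H3C7 was at 6.45 ± 0.51 against 9.89 ± 0.69 (-3.45 ± 0.91, adjusted p = 0.029), and it was called in 1 of 6 fits that left out an array, the one without miR-107-mut1 replicate 1 (adjusted p = 0.034 to 0.19 over the 6). The other 14 named falls were called in each of the 19 settings that tested them.

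**Figure D3:**
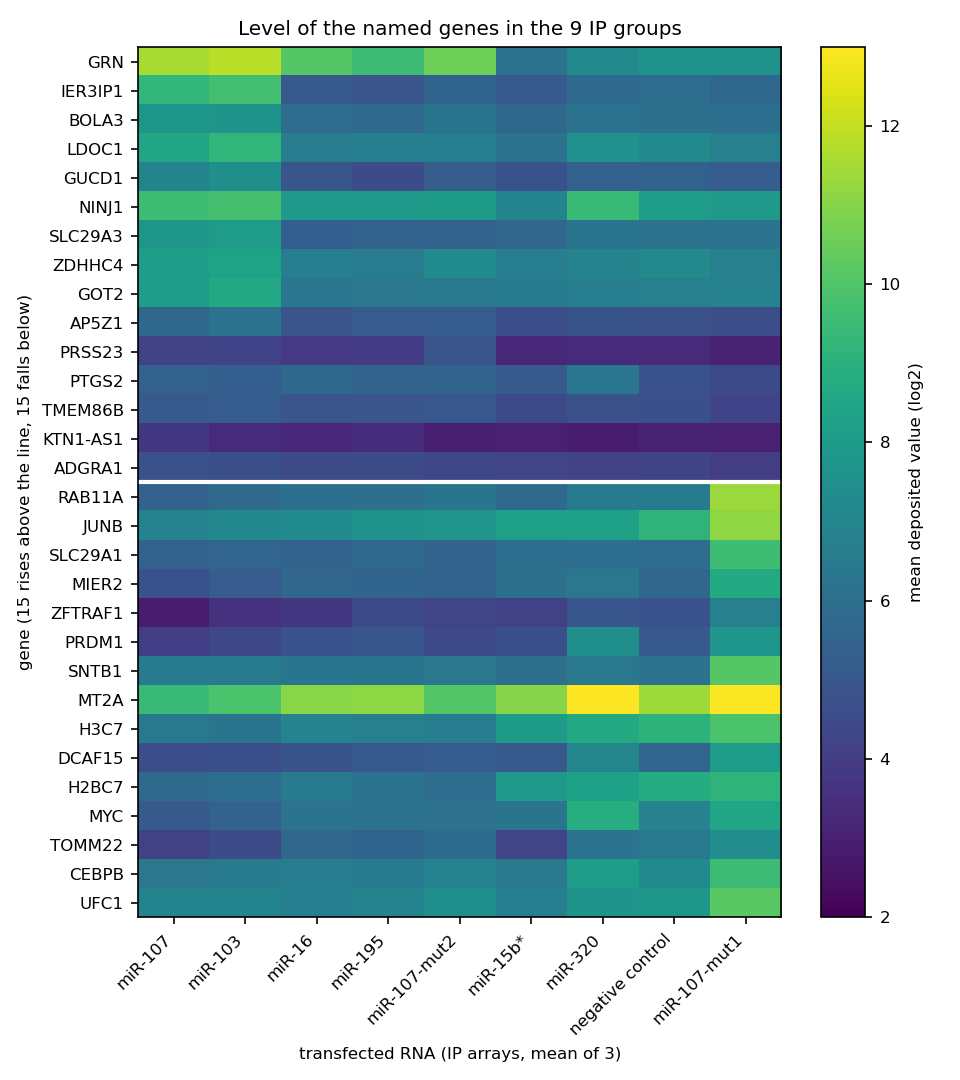
Mean deposited value (log2, colour) of the 15 named rises (above the white line) and 15 named falls (below it) in the 9 IP groups, 3 arrays each. The first rows are bright in the miR-107 and miR-103 columns, and the rows from RAB11A down are brightest in the miR-107-mut1 column, except MT2A and MYC, which are brightest with miR-320.

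Across the 9 IP groups most of the leading rises were also high with miR-103. In 8 of the 15 named rises the 6 arrays of miR-107 and miR-103 lay above the other 21 IP arrays. The share over all tested genes was not computed. The 15 were also chosen with their miR-107 arrays above those of miR-107-mut1. GRN was at 11.85 ± 0.55 with miR-103 and 11.58 ± 0.29 with miR-107, which overlap within their spread. It was at 10.57 ± 0.48 with miR-107-mut2, 10.11 ± 0.34 with miR-16 and 9.54 ± 0.50 with miR-195. The negative control (7.63 ± 0.20), miR-107-mut1 (7.60 ± 0.66), miR-320 (7.19 ± 0.17) and miR-15b* (6.21 ± 1.46) made up the low end. miR-107-mut2 thus lay between miR-103 and miR-16 for GRN, with a difference from the control of 2.94 ± 0.48 (adjusted p = 0.0055), whereas miR-107-mut1 differed from the control by -0.03 ± 0.48 (adjusted p = 1). IER3IP1 had another order: miR-103 was at 9.73 ± 0.38, and miR-107-mut2 (5.53 ± 0.25), miR-16 (5.12 ± 0.39) and miR-195 (4.89 ± 0.26) were at or below the control (5.92 ± 0.77). NINJ1 was also high with miR-320, at 9.40 ± 0.28, next to 9.77 ± 0.18 with miR-103.

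The comparison of miR-103 with the negative control shares no array with that of miR-107 and miR-107-mut1. It called 2.03% of all genes, 0.235% higher and 1.79% lower. Of the 21 higher genes 9 were called higher there, and 20 had a positive difference. Among them were IER3IP1 (3.81 ± 0.39, adjusted p = 4.7e-06), GRN (4.22 ± 0.48, adjusted p = 2e-05) and BOLA3 (1.63 ± 0.23, adjusted p = 0.00031). Of the 537 lower genes 83 were called lower with miR-103 and 0 were called higher. Their median difference there was -0.69, against -0.09 over all genes. After loess, which called 4.25% of all genes and 3.43% lower, 122 of the 537 were called lower and 3 higher.

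The 537 lower genes had a median level of 4.83 with miR-107 and 6.34 with miR-107-mut1, the values that chose them. In groups the choice did not use, the median was 5.13 with miR-103, 5.19 with miR-16, 5.28 with miR-15b*, 5.29 with miR-195, 5.41 with miR-107-mut2, 5.89 in the negative control and 5.95 with miR-320. Over all tested genes the same medians lay between 4.45 and 4.67. After loess the medians of the 537 were, in the order above, 5.20, 5.27, 5.52, 5.33, 5.40, 5.78 and 5.86. The single miR-15b* arrays had deposited medians from 4.64 to 5.98. On the deposited values the miR-103 mean was nearer to that of miR-107 than to that of miR-107-mut1 for 499 of the 537, against 7201 of 11050 genes tested. The control mean was nearer to miR-107-mut1 for 352 of the 537, a smaller share than the 7903 of 11050 over all tested genes. After loess the control counts were 299 and 7708. In the promoter windows of the RefSeq table (GRCh38.p14) the median G and C share was 66% for the 442 lower genes with a promoter in the table, 68.7% for 19 higher ones and 66% for 8777 tested genes.

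In the total lysate the same contrast called 1488 genes (13.5%), 769 higher (6.96%) and 719 lower (6.51%), with a median of 0.01. With the replicate block, which pairs these lysates, 2117 were called (1129 higher and 988 lower), including all 769 and all 719. The lysate differences, SE and p-values below are from the fit without the block. The IP and lysate differences ran in opposite directions for several of the leading genes. GRN was lower in the miR-107 lysate, at 11.45 ± 0.24 against 12.18 ± 0.21 (-0.73 ± 0.18, adjusted p = 0.0082), and NINJ1, ZDHHC4, BOLA3 and GUCD1 also fell there, by 0.72, 0.69, 0.42 and 0.94. RAB11A was higher, at 10.95 ± 0.19 against 10.20 ± 0.18 (0.75 ± 0.15, adjusted p = 0.0015), as were ZFTRAF1 (0.95 ± 0.22) and HMGN4. JUNB read 10.49 ± 0.14 against 10.35 ± 0.18 (adjusted p = 0.8). PTGS2 and PRSS23 rose in both fractions, in the lysate by 2.38 ± 0.28 and 1.97 ± 0.22. Of the 21 higher genes 4 were called higher and 5 lower in the lysate, and of the 537 lower genes 72 were called higher and 121 lower.

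The difference between the IP and the lysate contrasts was tested as an interaction over all 54 arrays, which cancels an offset between fractions but not a difference in scale. It called 767 genes (6.94%), 110 higher (0.995%) and 657 lower (5.95%). Of the 21 higher genes 11 were called higher and 1 lower, and of the 537 lower genes 321 were called lower and 5 higher. The interaction contains the IP values that chose these genes, so calls in the same direction are partly built in. GRN led the positive values (4.71 ± 0.53, adjusted p = 2.7e-08), before IER3IP1 (3.84 ± 0.44), GUCD1 (2.68 ± 0.49), NINJ1 (2.40 ± 0.40) and RFC3 (2.40 ± 0.31). RFC3, a subunit of the clamp loader of DNA replication, fell in the lysate from 9.30 ± 0.19 to 7.11 ± 0.38. It stayed between 2.70 and 3.50 on the 6 IP arrays, where the groups overlapped. Those values lay below the medians of these arrays (3.55 to 3.65), so a fall in the IP would have been hard to see. RAB11A led the negative values (-6.63 ± 0.37, adjusted p = 4.5e-17), before ZFTRAF1 (-4.90 ± 0.72), MIER2 (-4.58 ± 0.59), JUNB (-4.37 ± 0.46) and SNTB1 (-4.11 ± 0.40).

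**Figure D4:**
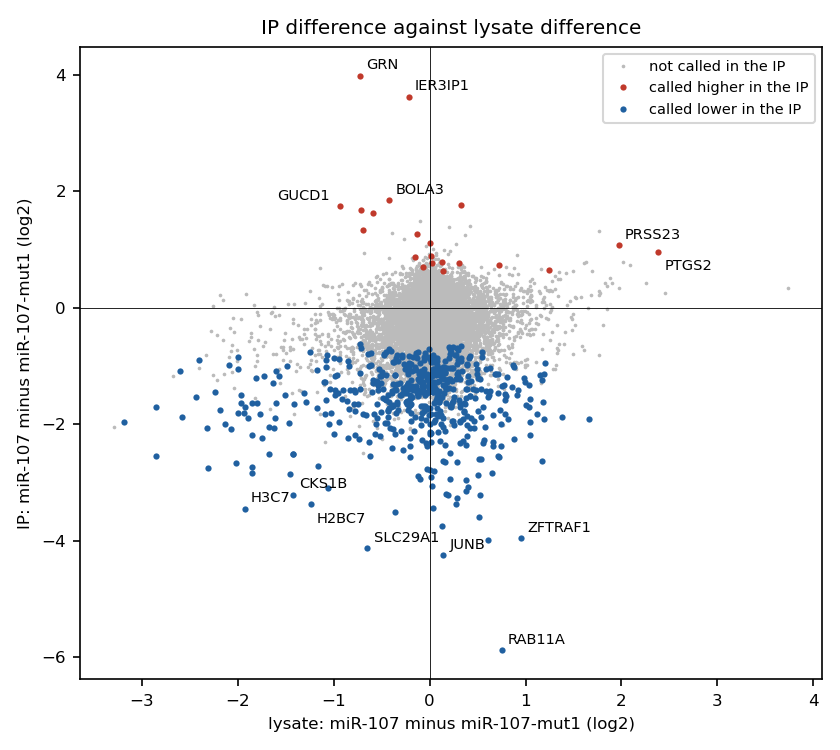
Difference between miR-107 and miR-107-mut1 (log2) in the lysate (x axis) and in the IP (y axis) for 11050 genes, with genes called in the IP coloured. GRN and IER3IP1 stand at the top left of the vertical line, PTGS2 and PRSS23 are high in both, RAB11A and ZFTRAF1 are low in the IP and high in the lysate, and the histone genes H3C7 and H2BC7 are low in both.

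Among gene lists, replication-dependent histones, whose messages lack a poly(A) tail and are made in S phase, had the largest share of lower calls in the IP. Of 33 tested, 23 fell and 0 rose, with a median of -1.58 (-1.16 after loess, 20 lower). H1-4, a linker histone gene, read 10.11, 9.69 and 10.16 against 12.44, 12.26 and 12.92 (-2.55 ± 0.28, adjusted p = 3.6e-06). H3C2 was at 6.43 ± 0.66 against 9.16 ± 0.45 (-2.73 ± 0.57, adjusted p = 0.006), and H2AC16 at 4.51 ± 0.35 against 7.02 ± 0.35 (-2.51 ± 0.45, adjusted p = 0.0016). H3C2 lost its call without miR-107 replicate 2 (adjusted p = 0.05). The groups did not overlap in these 3 genes, and their control means, 11.39, 8.93 and 6.58, were nearer to miR-107-mut1. Histone genes have near-identical copies, so the assignment of a signal to a single copy is uncertain. In the lysate 29 of the 33 fell (median -1.17), and the interaction called 3 lower and 1 higher. Without single arrays 12 to 22 of the 33 were called lower, the fewest without miR-107-mut1 replicate 3, and 14, 13 and 15 without miR-107 replicates 1 and 2 and miR-107-mut1 replicate 2.

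Genes of cell division were fewer in the IP calls than in the lysate. Of 18 mitosis genes 7 fell in the IP (median -0.99) and 18 in the lysate (median -2.06). PLK1, a mitotic kinase, read 5.26, 5.40 and 4.32 against 7.05, 7.07 and 8.51 in the IP (-2.55 ± 0.43, adjusted p = 0.0008), and -2.85 in the lysate (adjusted p = 2e-09). TOP2A, the topoisomerase of mitosis, fell in the lysate by 2.26 and was at 2.57 ± 0.21 against 2.54 ± 0.06 in the IP, near the lowest values there. Of 28 DNA replication genes 9 fell in the IP (median -0.67) and 28 in the lysate (median -1.59). TYMS, which makes thymidylate, read 3.97, 4.10 and 4.63 against 5.79, 6.54 and 6.91 in the IP (-2.18 ± 0.42, adjusted p = 0.0028). The interaction called 9 mitosis and 8 replication genes higher and 0 lower. The median levels of these lists with miR-107 in the IP were 3.36 and 3.50, below the medians of those arrays (3.55 to 3.63). A fall as large as in the lysate would have been hard to see there.

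Of 20 G1 cyclins and kinases 5 fell in the IP: MYC, the cyclin gene CCNE1 (-1.14 ± 0.30), CDK2 (-1.81 ± 0.47), the transcription factor gene E2F1 (-1.01 ± 0.28) and CDKN1A, an inhibitor of cyclin-dependent kinases (-1.45 ± 0.33). CKS1B, a cofactor of those kinases picked after its values were seen, read 4.06, 4.80 and 4.38 against 6.96, 7.99 and 7.90 (-3.21 ± 0.57, adjusted p = 0.0015), with the control at 7.44. Without miR-107-mut1 replicate 3 the lower calls were 1 of 18 for mitosis, 2 of 28 for replication and 1 of 20 for G1. Without miR-107 replicate 1 they were 1, 9 and 4. Without miR-107 replicate 2 they were 2, 4 and 1. Without miR-107 replicate 3 they were 3, 6 and 2, and without miR-107-mut1 replicate 2 they were 6, 4 and 1. PLK1, TYMS, MYC and CKS1B were called in each of these fits. CCNE1, CDK2, E2F1 and CDKN1A lost their calls without miR-107 replicate 2 and without miR-107-mut1 replicates 2 or 3 (highest adjusted p = 0.16, 0.22, 0.26 and 0.083).

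Genes of message decay also lay low in the IP. Of 36 genes of deadenylation and decapping 7 fell in the IP (19.4%, against 4.86% of all genes). Their median was -0.73, and -0.47 after loess with 7 lower. In the lysate 2 rose and 1 fell, and with the replicate block 3 rose and 4 fell. Over all genes 6.96% rose and 6.51% fell there, and with the block 1129 and 988 of 11050 did. The lysate counts thus do not set this list apart. PABPC1, the cytoplasmic poly(A)-binding protein, read 5.81, 4.49 and 5.96 against 7.76, 7.32 and 7.97 (-2.27 ± 0.43, adjusted p = 0.0025), with -0.08 in the lysate (adjusted p = 0.93). ZFP36L1, a decay factor for AU-rich messages, read 7.34, 6.13 and 6.94 against 8.49, 8.50 and 8.74 (-1.77 ± 0.33, adjusted p = 0.0025). DCP1B, a decapping cofactor, was at 4.57 ± 0.28 against 5.95 ± 0.26 (-1.38 ± 0.26, adjusted p = 0.0022). In these 3 the control means (8.74, 8.79 and 5.96) were at or above those of miR-107-mut1. PATL1, LSM2, LSM3 and ZFP36 were the other falls. Leaving out single arrays gave 3 to 9, with 3 without miR-107-mut1 replicate 3 and 4 without miR-107 replicate 2.

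Immediate early and AP-1 genes, induced within a short time of a stimulus, had 5 falls among 24: JUNB, MYC, JUND (-1.96 ± 0.43), ZFP36 (-2.04 ± 0.48) and NR4A1 (-1.12 ± 0.25). Their median was -0.56 in the IP and 0.28 in the lysate, where 5 rose (8 with the replicate block), and the interaction called 12 lower and 0 higher. After loess 4 fell, and FOSL1 rose by 1.07 (adjusted p = 0.017) from 0.39 as deposited. Without miR-107-mut1 replicate 3 there were 2 lower calls and without miR-107 replicate 2 there were 3. JUND, ZFP36 and NR4A1 lost their calls without miR-107-mut1 replicate 3, and JUND and ZFP36 also without miR-107 replicate 2 (highest adjusted p = 0.071, 0.13 and 0.11). CEBPD, related to CEBPB and picked after its values were seen, read 7.80, 6.76 and 7.63 against 10.16, 10.86 and 10.37 (-3.06 ± 0.33, adjusted p = 2.9e-06), with 0.02 in the lysate.

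Cytosolic ribosomal protein genes had fewer calls after loess. Of 54 tested 8 fell (median -0.63), and after loess 3 fell and the median was -0.05. RPLP1, of the ribosomal stalk, read 9.80, 9.38 and 9.16 against 11.98, 12.04 and 12.25 (-2.64 ± 0.31, adjusted p = 8.8e-06), and was at -1.62 after loess (adjusted p = 0.0051). RPL5 (-2.37 ± 0.45) and RPS28 (-1.99 ± 0.31) were called as deposited, and after loess were at -1.62 (adjusted p = 0.098) and -0.89 (adjusted p = 0.38). None of the 54 was called in the lysate, and 2 were called higher there with the replicate block. Many ribosomal protein genes have processed copies, so their signals are uncertain in the same way as those of the histones. Without single arrays 3 to 7 of the 54 were called lower, with 3 without miR-107 replicate 2 or miR-107-mut1 replicate 2, 4 without miR-107-mut1 replicate 3 and 5 without miR-107 replicate 3.

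Literature targets of miR-103 and miR-107 gave 1 rise and 1 fall in the IP among 19 tested, GRN and CCNE1, with a median of -0.43 (-0.10 after loess). In the lysate 8 fell and 2 rose. BACE1, the β-secretase of amyloid formation, was at 5.50 ± 0.24 against 6.35 ± 0.68 in the IP (-0.86 ± 0.36, adjusted p = 0.16) and fell by 0.66 in the lysate (adjusted p = 7.7e-05). CDK6, a G1 kinase, differed by -0.80 ± 0.26 in the IP (adjusted p = 0.07) and fell by 1.63 in the lysate (adjusted p = 1.8e-07). DICER1, which processes microRNA precursors, differed by -0.58 ± 0.26 (adjusted p = 0.18), and CACNA2D1, a calcium channel subunit, by 0.02 ± 0.22 (adjusted p = 0.96). CCNE1, also on the list for the miR-16 family, read 5.24, 4.84 and 4.78 against 5.90, 6.18 and 6.20 and was 0.04 in the lysate. It lost its call without miR-107 or miR-107-mut1 replicates 2 or 3 (highest adjusted p = 0.16). The mitotic inhibitor gene WEE1 (-1.77 ± 0.35, adjusted p = 0.0035) was the other fall among the 25 targets of that list tested, with BCL2 at 0.22 ± 0.19 and CCND1 at -0.36 ± 0.29, neither called.

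None of 24 genes of Argonaute and microRNA machinery was called in the IP on the deposited values, where 5.05% of all genes were. Without miR-107-mut1 replicate 1, 3 were called lower. AGO1, an Argonaute, was at 3.67 ± 0.44 against 4.73 ± 0.66 (adjusted p = 0.15) and fell by 1.01 in the lysate (adjusted p = 3.2e-08). AGO2, the slicing Argonaute, was at 3.92 ± 0.47 against 4.32 ± 0.57 (adjusted p = 0.54) and at 0.20 in the lysate (adjusted p = 0.46). TNRC6A, a scaffold that binds Argonaute, was at 3.83 ± 0.32 against 4.70 ± 0.74 (adjusted p = 0.16). After loess TARBP2, a partner of DICER1, was called higher (0.73, adjusted p = 0.017), and it fell by 1.15 in the lysate. These are messages: the amount of Argonaute protein brought down was not measured here.

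In the remaining lists 0% to 6.9% of the tested genes were called in the IP, against 5.05% of all genes. Counts this small do not set a list apart from all genes. Interferon genes (26 tested) and Alzheimer disease genes (22) had 0 in the IP. Of 29 lysosome and secretory granule genes GRN rose and TMEM106B, a lysosomal membrane protein, fell (-1.23 ± 0.24, adjusted p = 0.0035). Of 37 genes of oxidative phosphorylation NDUFA2 and NDUFA6 fell, and the list median turned from -0.42 to 0.06 after loess. Of 38 matrix genes LOXL2 fell (its arrays overlapped), and of 35 actin cytoskeleton genes RHOA fell (-1.65 ± 0.39, adjusted p = 0.015). DDIT3, a factor of the stress response, fell as 1 of 25 genes of the unfolded protein response. Without miR-107-mut1 replicate 1 there were 4 lower calls in the actin list and 2 each in the interferon, unfolded protein response and lysosome lists, and without miR-107-mut1 replicate 2 there were 3 in the unfolded protein response. TMEM106B was called without each array in turn, and LOXL2, RHOA, NDUFA2 and DDIT3 lost their calls without miR-107 replicates 2 or 3 or miR-107-mut1 replicate 3, and NDUFA6 without any of the 6 arrays (highest adjusted p = 0.32, 0.16, 0.23, 0.31 and 0.14).

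**Figure D5:**
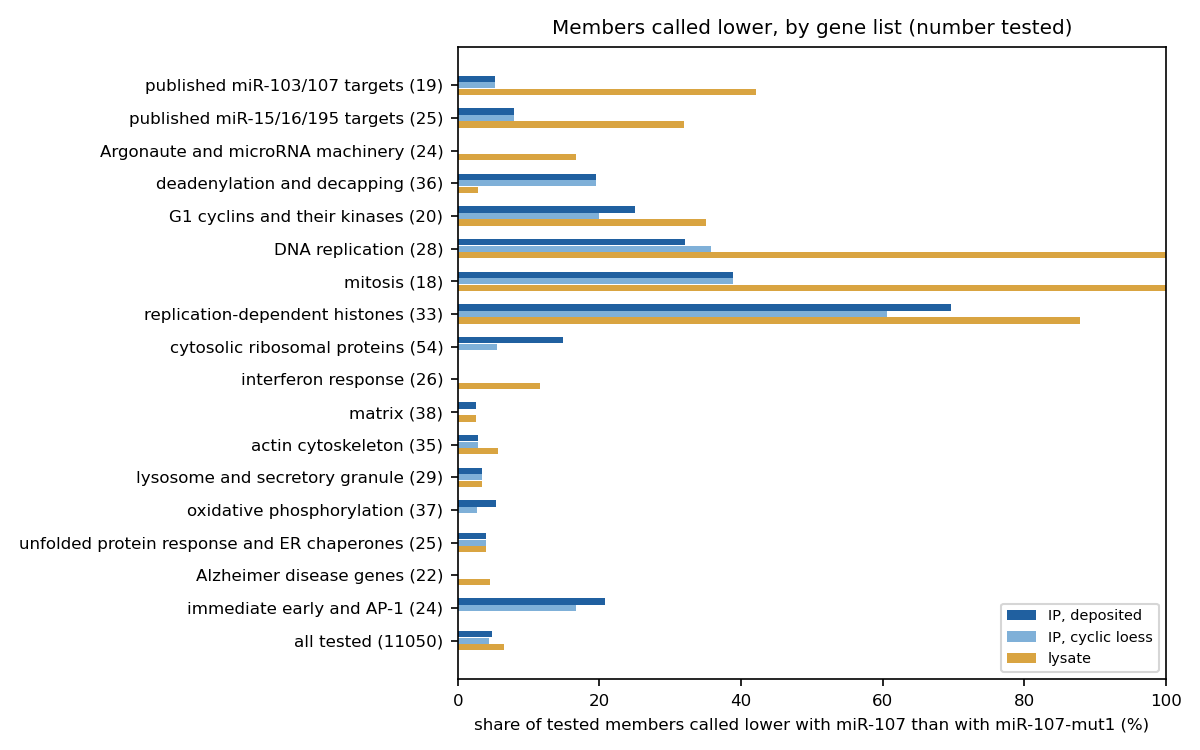
Share of the tested members of each gene list (percent, x axis from 0 to 100) called lower with miR-107 than with miR-107-mut1 in the IP as deposited, in the IP after cyclic loess, and in the lysate, with the number tested in brackets. Histones reach 69.7% in the IP against 4.86% over all genes, and all 18 mitosis and 28 replication genes are lower in the lysate. The decay and immediate early lists have falls in the IP. In the lysate 1 of 36 and 0 of 24 of their genes fall, where 6.51% of all genes do.

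The number of IP calls depended on single arrays. Without miR-107-mut1 replicate 3, the array with the largest spread of the 6, 166 genes were called (10 higher and 156 lower), of which 9 and 155 were among the 21 and 537. Without miR-107 replicate 2, the array with the smallest spread, 207 were called (12 higher and the others lower). Without miR-107-mut1 replicate 2 there were 303 (12 and 291), without miR-107 replicate 3 there were 341 (17 and 324) and without miR-107 replicate 1 there were 423 (17 and 406). Without miR-107-mut1 replicate 1 the count went up to 957 (68 and 889). Of the 537 lower genes, 137 were called without each array in turn, and 120 in each of the 19 settings that tested them. Of the 558 called genes 20 higher and 525 lower did not overlap between the groups, against 5.72% and 22% of all genes.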

How the data were processed

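Per the submitters' processing notes, the authors used RMA and Affymetrix Expression Console 1.1. The deposited table gives log2 values for 33297 probe sets on 54 arrays (the scale read from the values). IP arrays had far lower means than lysate arrays (3.62 to 3.65 against 7.11 to 7.15 over probe sets in the groups compared), which points to separate normalization of the fractions. The 19460 probe sets with 1 gene symbol were kept (1754 had several and 12083 none), 19429 matched to RefSeq by gene ID, and the probe set with the highest mean stood for each of 769 genes with more than 1. Of 18417 genes, the 7367 whose average across the 54 arrays was below 5.26 (the lowest 40%) were not tested.

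IP and lysate arrays were fitted apart with limma (version 3.58.1) in R 4.3.3 (data.table package, version 1.17.8), 27 arrays and 9 groups each (18 residual degrees of freedom), and together for the interaction. The models were run on simulated data, with noise of equal size on every array of a fraction. The spread of the real IP arrays was unequal, so that run cannot show how the unequal spread affects the calls. The highest correlation between arrays was 0.9968, and no array was treated as a duplicate. Named genes were taken from the called genes without overlap between groups, up to 15 in each direction by size (5 for the interaction), and from the lists. The comparison, the members and the lists were chosen with earlier results of these data known. Alternatives were other filters, cyclic loess, trended and robust eBayes, only the arrays compared, array weights, the replicate block, the mean of probe sets and each array left out. Quantile normalization, all probe sets, and loess with weights were added after seeing the data. Deviations from group means of same-numbered miR-107 and miR-107-mut1 arrays correlated at -0.004, 0.088 and 0.16 across genes in the IP. In the lysate they correlated at 0.625, 0.528 and 0.539. By a minimum of 0.1 the numbers were taken to pair the lysates and not the IPs. The lysate and interaction values given are still from fits without pairing, except where the block is named. The interaction fit also treated the IP and the lysate of a culture as independent arrays. The IP value of 0.16 was above that minimum, and the replicate block gave 2012 IP calls against 558 without it. Whether the IP arrays of all groups share a replicate effect was not tested further. Figures used matplotlib 3.10.9 (Python 3.11.15). Seed sites and signal over background were not analysed here. Precision is limited by having 3 arrays a group.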

Additional observations from a re-analysis of the deposited data

Results flagged for a closer look

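For 26 named genes the IP and lysate contrasts differed by the interaction test in limma (adjusted p under 0.05), given here as the IP difference minus the lysate difference in log2 units. They include 11 of the 15 named rises and 14 of the 15 named falls. Those genes were picked for large IP differences, and the interaction uses the same IP values, so these counts are no separate test. Positive values were found for GRN (4.71), IER3IP1 (3.84), GUCD1 (2.68), NINJ1 (2.40), BOLA3 (2.26), SLC29A3 (2.22), ZDHHC4 (2.02), GOT2 (1.40), AP5Z1 (1.11) and TMEM86B (1.02). PTGS2 was at -1.42, with a larger rise in the lysate than in the IP, and after loess it was at -1.07 (adjusted p = 0.16). RFC3 was at 2.40 with a fall in the lysate and no call in the IP, where its values were below the array medians and a fall would have been hard to see.

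Negative values were found for RAB11A (-6.63), ZFTRAF1 (-4.90), MIER2 (-4.58), JUNB (-4.37), SNTB1 (-4.11), PRDM1 (-3.87), CEBPB (-3.76), MYC (-3.64), TOMM22 (-3.56), SLC29A1 (-3.48), DCAF15 (-3.47), UFC1 (-3.41), MT2A (-3.14) and H2BC7 (-2.13). AP5Z1, PTGS2, TMEM86B and H2BC7 lost the call without 1 or more arrays (highest adjusted p = 0.17, 0.12, 0.099 and 0.14): AP5Z1 without any array but miR-107-mut1 replicate 2, PTGS2 without replicate 2 of either group, TMEM86B without replicate 3 of either, and H2BC7 without miR-107 replicate 2 or miR-107-mut1 replicates 2 or 3. After loess within each fraction the interaction called 635 genes (186 higher and 449 lower), against 767 (110 and 657) on the deposited values. The part of the unequal spread of the IP arrays in these differences was not tested.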

How the results depend on the processing

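The IP count of 558 (21 higher, 537 lower) became 2731 (571 and 2160) with array weights, whose estimate did not fully converge, 1817 (612 and 1205) with weights after loess, 2012 (166 and 1846) with the replicate block and 1984 (730 and 1254) with the block after loess. The block kept all 21 and all 537 in the IP and ended no lysate call. The count of higher genes was 82 without a filter, 37 with the filter on the IP mean, 42 over all probe sets, 107 after loess and 130 after quantile normalization. Leaving out each array gave 166 to 957 calls, 10 to 68 higher and 156 to 889 lower. The lysate count of 1488 was 2353 with only the arrays compared, 4313 with array weights, 4140 with weights after loess and 2235 with the block after loess, and 1009 to 1291 without single arrays. The interaction count of 767 was 3964, 2791, 2021 and 1417 with weights, weights after loess, the block and the block after loess, and 314 to 1007 without single arrays. With loess alone it was 635 (186 higher and 449 lower). The causes were not tested. Of 1890 values for 135 named or listed genes under alternatives, 1484 kept their side of the threshold, 318 lost a call, 88 gained one and 0 turned a called direction.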
